A study of Homo sapiens with 36 samples.

Results

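The cytosolic ribosomal protein genes were followed in HK-2, a human proximal tubule epithelial line that was immortalized in culture, exposed to a compound labelled Aa or a compound labelled Ota. Members were taken by symbol: RPL or RPS with a number and an optional A or X, together with RPLP0, RPLP1, RPLP2 and RPSA. Only probe sets annotated to a single symbol were used, and each gene was represented by the set with the highest mean over all 36 arrays, sets ending in _x_at serving only genes without any other. This gave 52 members of 19775 genes represented on the array, of which 20 belong to the small subunit and 32 to the large subunit. The 15 family symbols that share every probe set with another symbol (RPL4, RPL10, RPL13, RPL13A, RPL17, RPL21, RPL23, RPL28, RPL5, RPL7A, RPS2, RPS3A, RPS13, RPS20 and RPS26) were not analysed here, and neither were RPLP0, RPSA and RPS27A.

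The study laid out 12 groups of 3 biological replicates, 1 array each: Aa vehicle control, low dose and high dose at 24 h and at 48 h, and Ota vehicle control, low dose and high dose at 24 h and at 72 h. All cells were kept in serum-free DMEM/F12 with EGF, hydrocortisone, insulin, transferrin and selenium, were seeded 24 h before exposure and were close to confluence when it began. The labels give neither the compound names in full nor the concentrations, so doses of the 2 compounds are not matched. High and low dose of a compound at a time share the same control arrays. HK-2 is 1 immortalized line, and of 8 proximal tubule markers only SLC3A1, SLC4A4 and DPP4 exceeded a log2 value of 4 on all 12 control arrays, whereas 6 of 6 general epithelial markers did. Of the markers of other cell types, 0 of 5 leukocyte, 0 of 4 endothelial and 0 of 3 distal nephron genes passed that level on all 12 control arrays, and 3 of 4 fibroblast genes (DCN, LUM and COL1A1) did. Of the 3 tested proximal tubule markers 2 were called lower at both Aa high doses and at the Ota high dose at 24 h, and 3 at the Ota high dose at 72 h (medians -1.11, -3.05, -1.38 and -3.29), and the part of this in the results was not tested.

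Ribosomal proteins assemble with ribosomal RNA in the nucleolus into the 2 subunits of the cytosolic ribosome, and their mRNAs are among the most abundant in growing cells. Most of these mRNAs begin with a C followed by a run of pyrimidines, the 5′ terminal oligopyrimidine (TOP) sequence, through which mTORC1 and LARP1 control their translation and stability together. Because the family is large, abundant and jointly regulated, its members are often treated as stable references, and a member that leaves the family stands out. Free RPL5 and RPL11 bind MDM2, which links faulty ribosome assembly to p53.

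The transcription start sequences of 12 members described here are printed to show the start region: the 8 whose level relative to the family ranged widest over the groups, and RPS6, RPL3, RPS9 and RPS10. Each line holds 30 bases of RefSeq (GRCh38.p14), 15 before and 15 from the annotated start, on the gene's own strand, with capitals marking the pyrimidine run that begins at the annotated first base. RPS9 and RPS10 were added after their values were seen.
RPL14, chr3:40457324-40457353, plus strand: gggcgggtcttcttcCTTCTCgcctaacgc
RPS6, chr9:19380222-19380251, minus strand: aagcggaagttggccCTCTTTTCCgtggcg
RPL3, chr22:39319609-39319638, minus strand: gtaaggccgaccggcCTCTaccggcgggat
RPL36, chr19:5690280-5690309, plus strand: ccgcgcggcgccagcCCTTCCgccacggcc
RPS9, chr19:54200843-54200872, plus strand: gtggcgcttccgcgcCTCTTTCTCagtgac
RPL31, chr2:101002274-101002303, plus strand: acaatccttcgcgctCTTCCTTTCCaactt
RPL22, chr1:6199581-6199610, minus strand: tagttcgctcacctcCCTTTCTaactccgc
RPL38, chr17:74203663-74203692, plus strand: aacggaagtctcgttCTTTTTCgtcctttt
RPL27A, chr11:8682777-8682806, plus strand: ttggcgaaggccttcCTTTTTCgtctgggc
RPS10, chr6:34426055-34426084, minus strand: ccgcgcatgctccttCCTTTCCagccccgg
RPL36A, chrX:101390996-101391025, plus strand: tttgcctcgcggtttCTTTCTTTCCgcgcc
RPLP2, chr11:809952-809981, plus strand: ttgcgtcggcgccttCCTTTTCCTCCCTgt

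A start was counted as TOP-like where the first base was C and the pyrimidine run was at least 5 bases long. Of the 46 members with a RefSeq promoter entry, 34 (73.9%) had such a start, against 5.87% of 15338 other genes. RPL3 alone of the 12 had a run of 4 bases and was not counted, whereas the runs of RPL31, RPS6 and RPS9 were 10, 9 and 9 bases long. In the 300 bases from 250 before to 50 after the start, searched on both strands, the letters CCGGAAG (the ETS factor core) were present in 36.96% of members and 16.6% of other genes. The letters TCTCGCGA were present in 15.2% and 1.96%, GGGCGG (a GC box) in 56.5% and 64.6%, and TATAAA in 6.52% and 11.5%. No motif contains another, and overlaps between matches were not removed. These matches describe letters and not bound sites.

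Values are deposited log2 GCRMA expression values, so a difference of 1 is a 2-fold change. Over the 11405 genes that exceeded 4 on at least 3 of all 36 arrays, replicate arrays correlated with r between 0.953 and 0.994. No pair among the 630 array pairs exceeded 0.9942. A gene was tested if it exceeded 4 on at least 3 arrays of a compound, and 10972 genes passed for Aa and 11029 for Ota. RPL7, with a representative set at a mean of 2.97, failed this filter, so 51 members were tested. The representative sets of 46 members had a mean above 12, and 45 lay in the top 1% of all probe sets. The highest value of any set on any array was 16.09, so the family sits close to the upper end of the scale. The 6 dimmer representatives were those of RPL7, RPLP2, RPL36A, RPL27A, RPL31 and RPL38. Probe sets bind their targets unequally, so this order describes probe sets and not transcript abundance.

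The family as a whole moved little on the deposited scale, apart from the high dose of Ota. The median over members on each array was 14.71, 14.72 and 14.70 in the Aa controls at 24 h and 14.83, 14.82 and 14.77 at the Aa high dose. At 48 h it was 14.83, 14.80 and 14.76 in the controls and 14.83, 14.81 and 14.93 at the high dose. The Aa groups thus did not overlap at 24 h, with the treated arrays above, and overlapped at 48 h. For Ota it was 14.72, 14.73 and 14.75 in the 24 h controls and 14.85, 14.87 and 14.94 at the high dose. At 72 h it was 14.94, 14.97 and 14.91 in the controls and 14.58, 14.68 and 14.51 at the high dose. The Ota high dose arrays therefore lay above their controls at 24 h and below them at 72 h, with no overlap at either time. The low dose arrays of Ota lay at 14.77, 14.74 and 14.75 at 24 h and at 14.82, 14.93 and 14.81 at 72 h, and overlapped their controls at both times. In such bulk RNA, fewer cells of a kind and less RNA per cell cannot be told apart. No p-value is given for these medians because the members were chosen with results of these arrays known.

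**Figure D1:**
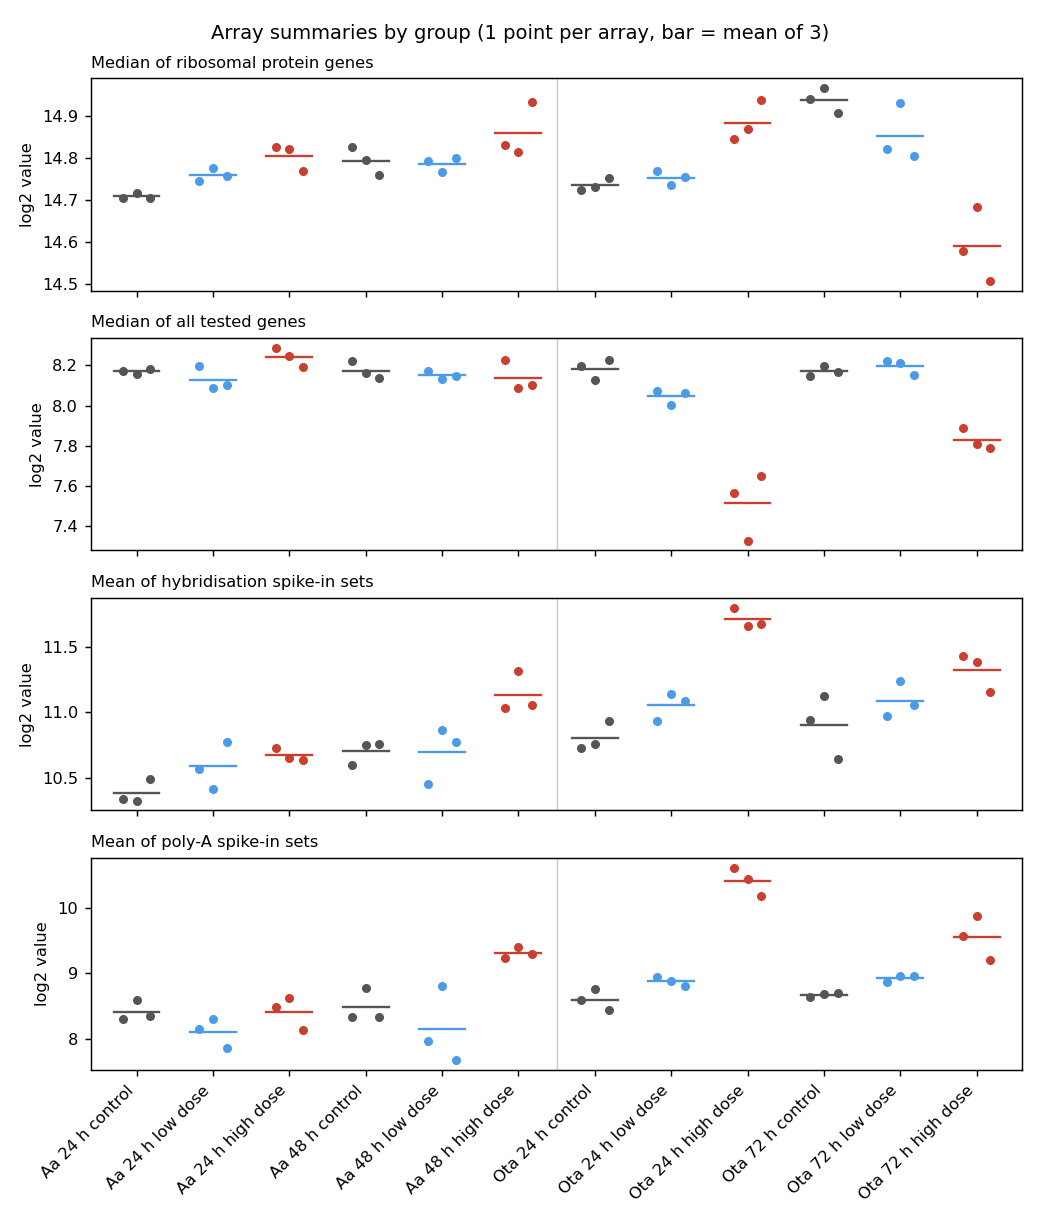
Family median, median over the tested genes, and mean of the hybridisation and poly(A) control spike sets, in log2 units, on each of the 36 arrays by group (points are single arrays, bars are group means). The family median of the Ota high dose arrays lies between 14.85 and 14.94 at 24 h and between 14.51 and 14.68 at 72 h.

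The other references on the same arrays did not follow the family. At the Ota high dose the median over tested genes was 7.51 ± 0.17 (SD, n = 3) at 24 h against 8.18 ± 0.05 in the controls, and 7.83 ± 0.05 at 72 h against 8.17 ± 0.02. The bacterial hybridisation spikes, added to each sample in fixed amounts before the array and measured by 18 control sets, averaged 11.71 ± 0.08 against 10.80 ± 0.11 at 24 h and 11.33 ± 0.15 against 10.90 ± 0.24 at 72 h. At 24 h the family median difference of 0.15 lay between a rise of the spikes and a drop of the median tested gene. At 72 h the family median differed from its controls by -0.35 and the median tested gene by -0.34, while the spikes were higher by 0.42. The poly(A) spikes, measured by 12 control sets, averaged 10.42 ± 0.22 against 8.60 ± 0.16 at 24 h and 9.55 ± 0.34 against 8.68 ± 0.03 at 72 h. For Aa at 48 h the high dose exceeded its controls by 0.44 in the hybridisation spikes and 0.83 in the poly(A) spikes, with a family median difference of 0.07. The part of RNA amount or hybridisation in these values was not tested.

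The choice of reference therefore set the sign of the family's change. At the Ota high dose at 24 h, 13 members were higher and 0 lower on the deposited scale, with a family median change of 0.16. Shifting each array to a common median over tested genes made 51 members higher and 0 lower, with a family median of 0.83. Shifting to the hybridisation spikes made 0 higher and 44 lower, with a family median of -0.75, and quantile normalization gave 14 and 0 with 0.10. Other genes moved with the scale too. Of all tested probe sets that do not represent their gene, 26.3% were called higher and 34.5% lower as deposited. These shares were 52.9% and 19.7% with the common median, 8.03% and 68.4% with the spikes and 37% and 27.5% after quantile normalization. At 72 h the deposited scale gave 2 higher and 24 lower (family median -0.25), quantile normalization 3 and 18 (-0.11), the common median 16 and 9 (0.10) and the spikes 0 and 42 (-0.67). The shares of such other sets were 30.6% higher and 27.5% lower as deposited and 34.3% and 24.8% after quantile normalization. They were 44.7% and 19.1% with the common median and 18.2% and 40.1% with the spikes. At the Aa high dose at 48 h the counts were 6 and 2 (family median 0.06) as deposited, 10 and 2 (0.11) after quantile normalization, 8 and 1 (0.10) with the common median and 1 and 26 (-0.38) with the spikes. The other sets were there 24.3% higher and 35.2% lower as deposited and 26.2% and 32.8% after quantile normalization. Their shares were 25.3% and 33% with the common median and 12.6% and 53% with the spikes. At the Aa high dose at 24 h 1 member was higher as deposited and none with the common median or the spikes, where the family medians were 0.01 and -0.21. The difference between the family median and the median of all tested genes does not depend on a shift of whole arrays: it was 0.05 and 0.10 for the Aa high dose at 24 h and 48 h, and 0.42 and -0.12 for the Ota high dose at 24 h and 72 h. After quantile normalization, which is not such a shift, it was 0.043 and 0.086 for Aa and 0.15 and -0.057 for Ota in the same order.

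**Figure D2:**
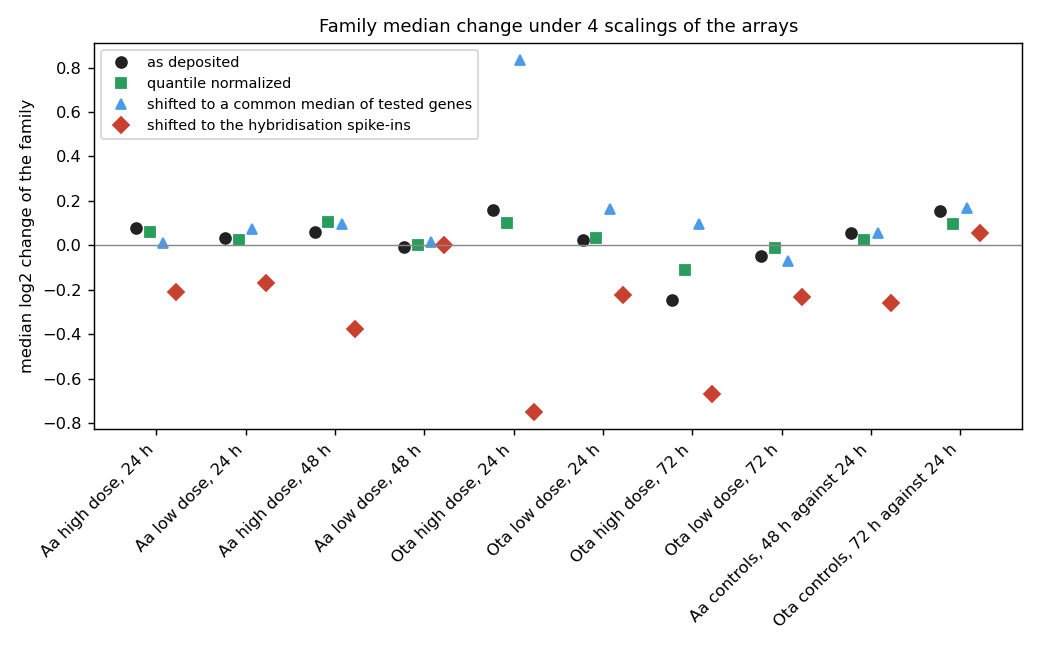
Median change of the family against the control (log2) in the 8 dose comparisons and in the 2 comparisons of controls over time, with 1 marker for the deposited scale and for each rescaling. At the Ota high dose at 24 h the median runs from -0.75 with the spikes to 0.83 with a common array median.

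Because of this dependence each member was also tested for departure from the family. The deviation of an array's family median was subtracted from every gene of that array before the fit, so that a departure is the log2 change beyond that of the family median on the same arrays and does not depend on a shift of whole arrays. The change of this median level can differ from the median of the members' changes. The subtracted median is taken from the members themselves, so a change they share leaves no departure in them by construction. Shares of all tested genes departing are given for scale, and fewer departures among members are no result of their own. Both fits ran over all tested genes with limma, and a gene was called at a Benjamini-Hochberg adjusted p under 0.05.

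With Aa at 24 h the family was nearly unmoved on the deposited scale. At the high dose 1 of 51 members was called higher and 0 lower, against 51.3% of all tested genes called. At the low dose the count was again 1 and 0, against 25.1% of tested genes. Departures numbered 0 at the high dose, where 51.2% of tested genes departed and 0 members had an unadjusted p under 0.05, and 1 at the low dose, where 25.1% of tested genes departed. Samples with the same replicate number deviated together in these groups, and with the replicate number as a block the high dose gave 6 higher and 0 lower, with 2 departures above and 1 below the family, and the low dose gave 2 higher and 0 lower, with 1 departure each way. Among the members named in full the block added the changes of RPL31 (0.50, adjusted p = 0.0106 at the high dose, and 0.40, adjusted p = 0.0481 at the low dose). With the spread fitted as a trend on intensity the high dose gave 9 higher and 0 lower.

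RPL22, a large-subunit protein that also binds certain cellular and viral RNAs, was the member called at both doses. Its values were 12.33, 12.41 and 12.41 in the 24 h controls, 12.80, 12.75 and 12.70 at the low dose and 12.79, 12.63 and 12.61 at the high dose. All treated arrays lay above all control arrays. The change was 0.37 at the low dose (SE 0.096, adjusted p = 0.0111) and 0.30 at the high dose (SE 0.096, adjusted p = 0.0171). Leaving out control replicate 1 (0.27, adjusted p = 0.0592) or high dose replicate 1 (0.24, adjusted p = 0.0804) ended the high dose call, and so did the common array median (0.23, adjusted p = 0.0833) and the spike scale (0.0085, adjusted p = 0.969). On the spike scale the low dose call ended as well (0.16, adjusted p = 0.493). The low dose departure of 0.32 (adjusted p = 0.0244) ended when control replicate 1, control replicate 2 or low dose replicate 1 was left out, with adjusted p between 0.0529 and 0.0877. Its bright _x_at sets, at means of 14.19 to 14.59, changed by -0.01 to 0.03 at the low dose and by 0.06 to 0.10 at the high dose, whereas another set, at a mean of 12.40, changed by 0.52 and 0.30.

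Aa at 48 h singled out RPL36A, RPL3 and RPS15A. At the high dose 6 members were called higher and 2 lower, against 66% of tested genes, and 1 departed above and 5 below the family, against 65.6%. At the low dose 0 were higher and 1 lower, against 37.9% of tested genes, with 1 departure against 37.3%. With the replicate block the high dose gave 10 higher and 3 lower with 4 departures above and 6 below, and the low dose 1 and 5 with 1 above and 5 below. An intensity trend in the spread gave 13 higher and 4 lower at the high dose and 1 and 4 at the low dose. Without control replicate 2 or high dose replicate 3, 5 members were called at the high dose, and without control replicate 2, 3 departed. At the low dose 3 members were called when low dose replicate 2 was left out, and none when control 1, control 2 or low dose 1 was left out.

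RPL36A, a large-subunit protein of the tRNA exit region, was measured by a dim set with values of 4.58, 4.78 and 4.84 in the 48 h controls, 4.93, 5.05 and 4.64 at the low dose and 6.80, 7.19 and 6.94 at the high dose. The high dose arrays stood above every other array of either compound, the next highest being 6.47. The rise was 2.24 (SE 0.20, adjusted p = 2.18e-07), a 4.73-fold change, and the departure from the family was 2.18. It has 1 probe set, so no second set could be compared. Its near-identical retrogene copy RPL36AL had means of 13.29 ± 0.14 (SD, n = 3) at the high dose and 13.13 ± 0.26 in the controls, a difference of 0.16 (adjusted p = 0.301).

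RPL3, which shapes the peptidyl transferase centre, had values of 14.43, 14.42 and 14.41 in the 48 h controls, 14.23, 14.33 and 14.07 at the low dose and 13.93, 13.86 and 14.02 at the high dose. The 3 high dose arrays were the lowest, and neither dose overlapped the controls. At the high dose it fell by 0.48 (SE 0.090, adjusted p = 0.000241), with a departure of -0.55. The low dose difference of -0.21 was called with the replicate block (adjusted p = 0.0418) and not without it (adjusted p = 0.079). Its only set is an _x_at set, which can bind related sequences.

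RPS15A, a small-subunit protein, had values of 14.84, 14.90 and 14.74 in the 48 h controls, 14.45, 14.66 and 14.41 at the low dose and 14.46, 14.51 and 14.56 at the high dose. It fell by 0.32 at both doses (adjusted p = 0.0134 at the high and 0.0235 at the low dose), and all treated arrays lay below the controls. The common array median ended both calls (-0.28, adjusted p = 0.0517 at the high dose, and -0.30, adjusted p = 0.0625 at the low dose), and the spike scale that at the low dose (-0.31, adjusted p = 0.188). Leaving out control replicate 2 ended the high dose call (-0.28, adjusted p = 0.0509), and the low dose call ended when control 1, control 2, low dose 1 or low dose 3 was left out (adjusted p from 0.0584 to 0.095). A second, dimmer set of RPS15A rose at every dose and time of both compounds, and its values are given with the further probe sets. The other members called higher at the high dose, named after their values were seen, were RPS19 (0.27), RPL35 (0.27), RPL19 (0.25), RPL18 (0.22) and RPL30 (0.20). Those that departed below the family were RPS3 (-0.22), RPS9 (-0.21) and RPL34 (-0.19), besides RPL3 and RPS15A.

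At the Ota high dose at 24 h the members called were all higher on the deposited scale, though not on the spike scale. On the deposited scale 13 of 51 were called higher and 0 lower, against 64% of tested genes called in either direction, 21.6% higher and 42.4% lower. The family median change was 0.16 and 50 of 51 values were positive, whereas the median over all tested genes was -0.26. An intensity trend in the spread gave 23 higher and 0 lower. Departures above the family numbered 6 and below it 0, against 64% of tested genes departing. At the low dose 2 members were called higher and 0 lower, against 14.7% of tested genes, and the same count departed, against 14.7%. Change ran with probe set level: over the 51 members the change at the high dose correlated with the mean level at a Pearson r of -0.84 and a Spearman rho of -0.61. This is a description over probe sets that share arrays, and 4 of the 5 largest changes lie in dim representatives.

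RPL22 had values of 12.73, 12.63 and 12.83 in the 24 h controls, 13.19, 13.09 and 13.27 at the low dose and 13.61, 13.55 and 13.73 at the high dose. The 3 groups did not overlap and rose in the order of dose. It rose by 0.46 at the low dose (SE 0.10, adjusted p = 0.0058) and by 0.90 at the high dose (adjusted p = 1.2e-06, 1.87-fold). The departures were 0.44 and 0.75. Leaving out control replicate 2 (0.39, adjusted p = 0.0554) or low dose replicate 3 (0.40, adjusted p = 0.0531) ended the low dose departure, and with the spike scale the changes became 0.21 (adjusted p = 0.403) at the low dose and -0.0054 at the high dose. Its set at a mean of 12.40 changed by 0.39 and 0.84, and its _x_at sets changed by 0.02 to 0.05 and by 0.17 to 0.33.

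RPL31, a large-subunit protein beside the exit of the nascent chain, had values of 8.45, 8.66 and 8.67 in the controls, 9.94, 9.83 and 10.23 at the low dose and 9.59, 9.45 and 9.48 at the high dose. Both doses lay above the controls, and the low dose lay above the high dose with no overlap. The rise was 1.41 at the low dose (adjusted p = 9.83e-06, 2.65-fold) and 0.91 at the high dose (adjusted p = 4.6e-05), and the high dose was lower than the low dose by 0.49 (adjusted p = 0.00832). Its second dim set gave 0.19 at the low and 0.98 at the high dose, so the sets differ in size and in the order of the doses. Its bright _x_at set, at a mean of 15.07, changed by -0.13 and 0.06, also with the high dose above the low.

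RPL38, which takes part in the selective translation of some developmental mRNAs, had values of 9.51, 9.93 and 10.02 in the controls, 9.80, 10.20 and 10.52 at the low dose and 10.88, 10.93 and 11.02 at the high dose. Only the high dose arrays stood clear of the controls. The high dose change was 1.12 (SE 0.21, adjusted p = 0.000204, 2.17-fold). A second dim set gave 0.96, and the bright _x_at set gave 0.24.

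RPL27A had values of 8.37, 8.75 and 8.69 in the controls and 9.74, 9.80 and 9.71 at the high dose, with no overlap. It rose by 1.15 (SE 0.18, adjusted p = 4.42e-05, 2.21-fold), and it has 1 probe set. RPLP2, a protein of the stalk that recruits elongation factors, was measured by a set close to the filter, with values of 4.38, 4.38 and 4.39 in the controls and 5.78, 5.54 and 4.86 at the high dose. The high dose replicates differ from each other by more than the controls do, but all lie above them, and the rise was 1.01 (SE 0.25, adjusted p = 0.00191). RPL36, a large-subunit protein, went from 12.77, 12.79 and 12.74 to 13.33, 13.57 and 13.35, a rise of 0.65 (SE 0.18, adjusted p = 0.00489). RPL14, a large-subunit protein, went from 13.86, 13.76 and 13.81 to 14.19, 14.24 and 14.20, a rise of 0.40 (SE 0.11, adjusted p = 0.00515) that did not depart from the family (0.25, adjusted p = 0.0579). On the spike scale the changes of RPL36 and RPL14 were -0.26 and -0.51, and the calls of RPL38 (0.21, adjusted p = 0.343), RPL27A (0.24, adjusted p = 0.25), RPLP2 (0.10, adjusted p = 0.708) and RPL31 (0.0044, adjusted p = 0.984) were lost. The dim RPL36A set was called with the replicate block (0.75, adjusted p = 0.00849) and not without it (adjusted p = 0.0623).

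**Figure D3:**
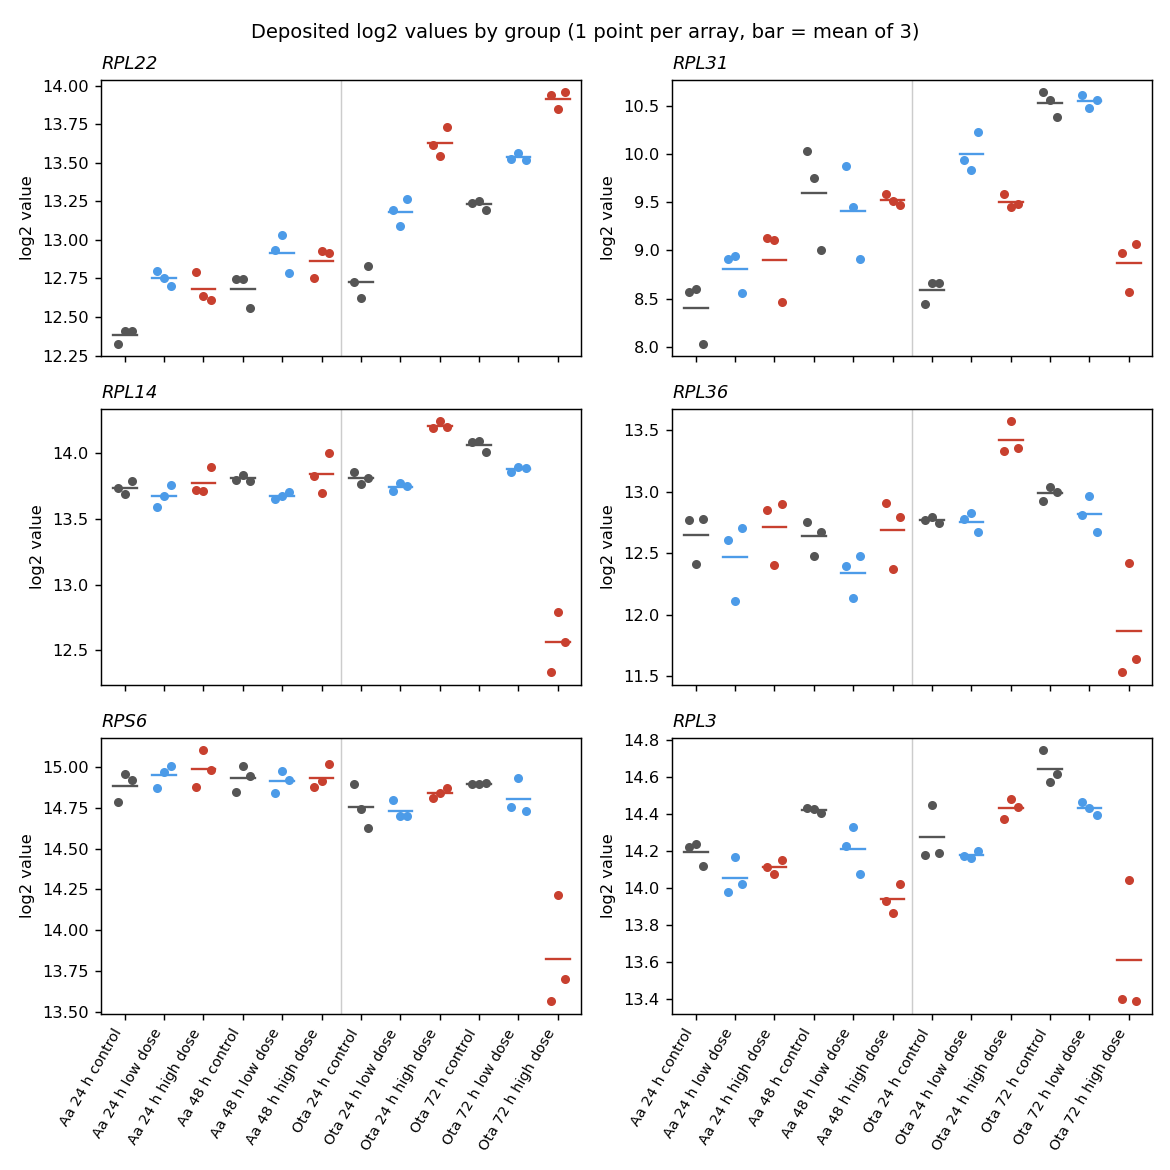
Log2 value of RPL22, RPL31, RPL14, RPL36, RPS6 and RPL3 on every array, by group (points are single arrays, bars are group means). The representative set of RPL22 rises with dose of Ota at both times, whereas RPL14, RPL36, RPS6 and RPL3 drop at the Ota high dose at 72 h, where RPL14 lies between 12.33 and 12.79.

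At the Ota high dose at 72 h members were called in both directions. On the deposited scale 2 of 51 members were higher and 24 lower, against 63.4% of tested genes called, 26.3% higher and 37% lower. Changes ran from -1.65 to 0.69. The lower members were 9 of 20 in the small subunit (median change -0.26) and 15 of 31 in the large subunit (median change -0.23). Relative to the family 16 members departed above and 9 below, against 40.1% and 27.3% of tested genes, 67.3% in all. The family's median level differed by -0.35 and the median member changed by -0.25, so departures here lean upward by construction. Their median was 0.10, with 32 positive and 19 negative. At the low dose 1 was higher and 0 lower, against 17.1% of tested genes, and 1 departed, against 18%. On the same high dose arrays the GAPDH 3′ control set was 13.92, 14.53 and 14.06 against 15.04, 15.05 and 15.01 in the controls. The actin control sets differed between 3′ and 5′ end by 1.88 ± 0.37 (SD, n = 3) against 1.29 ± 0.15, and their part in the falls was not tested.

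RPL31 had the largest fall, from 10.64, 10.56 and 10.38 in the 72 h controls to 8.98, 8.57 and 9.07 at the high dose, while the low dose lay at 10.61, 10.48 and 10.56. Only the high dose stood apart. The change was -1.65 (SE 0.14, adjusted p = 9.47e-08), a 3.15-fold fall, and its other sets gave -1.11 (dim) and -0.50 (bright). Represented by that bright set, RPL31 did not depart from the family (-0.21, adjusted p = 0.124). RPL14 had values of 14.09, 14.10 and 14.01 in the controls, 13.86, 13.89 and 13.89 at the low dose and 12.33, 12.79 and 12.56 at the high dose. The high dose arrays were far below the rest, with a change of -1.51 (SE 0.11, adjusted p = 1.72e-08, a 2.84-fold fall), and the bright _x_at set of RPL14 gave -1.13.

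RPL36 went from 12.93, 13.04 and 13.00 in the controls to 11.53, 12.42 and 11.64, with 12.81, 12.97 and 12.67 at the low dose. Replicate 2 of the high dose lay nearest the controls, and the fall was 1.12 (SE 0.18, adjusted p = 5.24e-05, 2.18-fold). RPS6, the substrate of S6 kinase, had values of 14.89, 14.89 and 14.90 in the controls, 14.75, 14.93 and 14.73 at the low dose and 13.56, 14.21 and 13.70 at the high dose. Again replicate 2 was the highest of the 3 treated arrays, and all 3 lay below every other array of the time point. RPS6 fell by 1.07 (SE 0.14, adjusted p = 8.88e-06, 2.10-fold), and its sets with other probes gave -1.04 and -1.09.

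RPL3 went from 14.74, 14.57 and 14.61 in the controls to 13.40, 14.04 and 13.39, with 14.46, 14.43 and 14.39 at the low dose. It fell by 1.03 at the high dose (adjusted p = 2.07e-05, 2.05-fold), and departed by -0.68. RPS15A went from 14.98, 15.02 and 14.96 to 14.37, 14.67 and 14.26, a change of -0.55 (adjusted p = 0.000939; -0.21, adjusted p = 0.138 with the common median) that did not depart from the family (-0.20, adjusted p = 0.114). Named after its values were seen, RPS9, a small-subunit protein that helps set decoding accuracy, went from 14.53, 14.53 and 14.47 to 13.35, 14.06 and 13.56, a change of -0.86 (adjusted p = 8.48e-05). The same pattern across the 3 treated arrays, with replicate 2 the mildest, thus recurred in RPL36, RPS6, RPL3 and RPS9. The remaining members departing below the family were RPL34 (-0.43), RPS25 (-0.41) and RPL29 (-0.38), also named after their values were seen.

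In the opposite direction RPL22 went from 13.24, 13.25 and 13.19 in the 72 h controls to 13.53, 13.56 and 13.52 at the low dose and 13.94, 13.85 and 13.96 at the high dose. The 3 groups again did not overlap and kept the order of dose. The high dose change was 0.69 (SE 0.10, adjusted p = 2.24e-05) and the departure 1.03 (adjusted p = 6.26e-07), while on the spike scale the change was 0.26 (adjusted p = 0.175). The low dose change of 0.31 (adjusted p = 0.0472) was lost when any 1 of its 6 arrays was left out (adjusted p from 0.0913 to 0.142), with quantile normalization (adjusted p = 0.0755), with a common median (0.0654) and on the spike scale (0.678), and its departure of 0.39 (adjusted p = 0.0197) was lost in 5 of those 6 fits, all but the one without low dose replicate 2. The RPL22 set at a mean of 12.40 changed by 0.14 at the low and 0.34 at the high dose. The RPL22 _x_at sets changed by -0.05 to -0.02 at the low and by 0.35 to 0.40 at the high dose. RPL38 went from 10.01, 10.33 and 9.97 to 10.74, 10.49 and 10.61, a rise of 0.51 (adjusted p = 0.0407) with no overlap. Leaving out control 1, control 3, high dose 1 or high dose 3 ended this call (adjusted p from 0.0745 to 0.121). So did quantile normalization (adjusted p = 0.0622), the spike scale (0.09, adjusted p = 0.71), the mean of all sets (adjusted p = 0.0788) and the fit without a filter (adjusted p = 0.0736), and the bright _x_at set of RPL38 gave -0.05.

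The other 14 departures above the family came from members without a called change of their own. RPS10, named after its values were seen, had values of 15.19, 15.16 and 15.13 in the controls and 15.31, 15.44 and 15.33 at the high dose, a departure of 0.55 (adjusted p = 0.000128) without a called change. RPLP2 went from 4.39, 4.66 and 4.38 to 4.92, 5.02 and 4.79, a departure of 0.78 (adjusted p = 0.0136). RPL27A, with 9.00, 9.07 and 8.50 against 8.98, 9.16 and 9.22, overlapped its controls and departed by 0.61 (adjusted p = 0.00834), a call lost without control replicate 3 (0.45, adjusted p = 0.0543) and after quantile normalization (0.45, adjusted p = 0.0524). The remaining 11, named after their values were seen, departed by 0.25 to 0.48: RPL23A, RPL35, RPS16, RPL39, RPLP1, RPS21, RPL19, RPL37A, RPL24, RPL9 and RPS15.

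**Figure D4:**
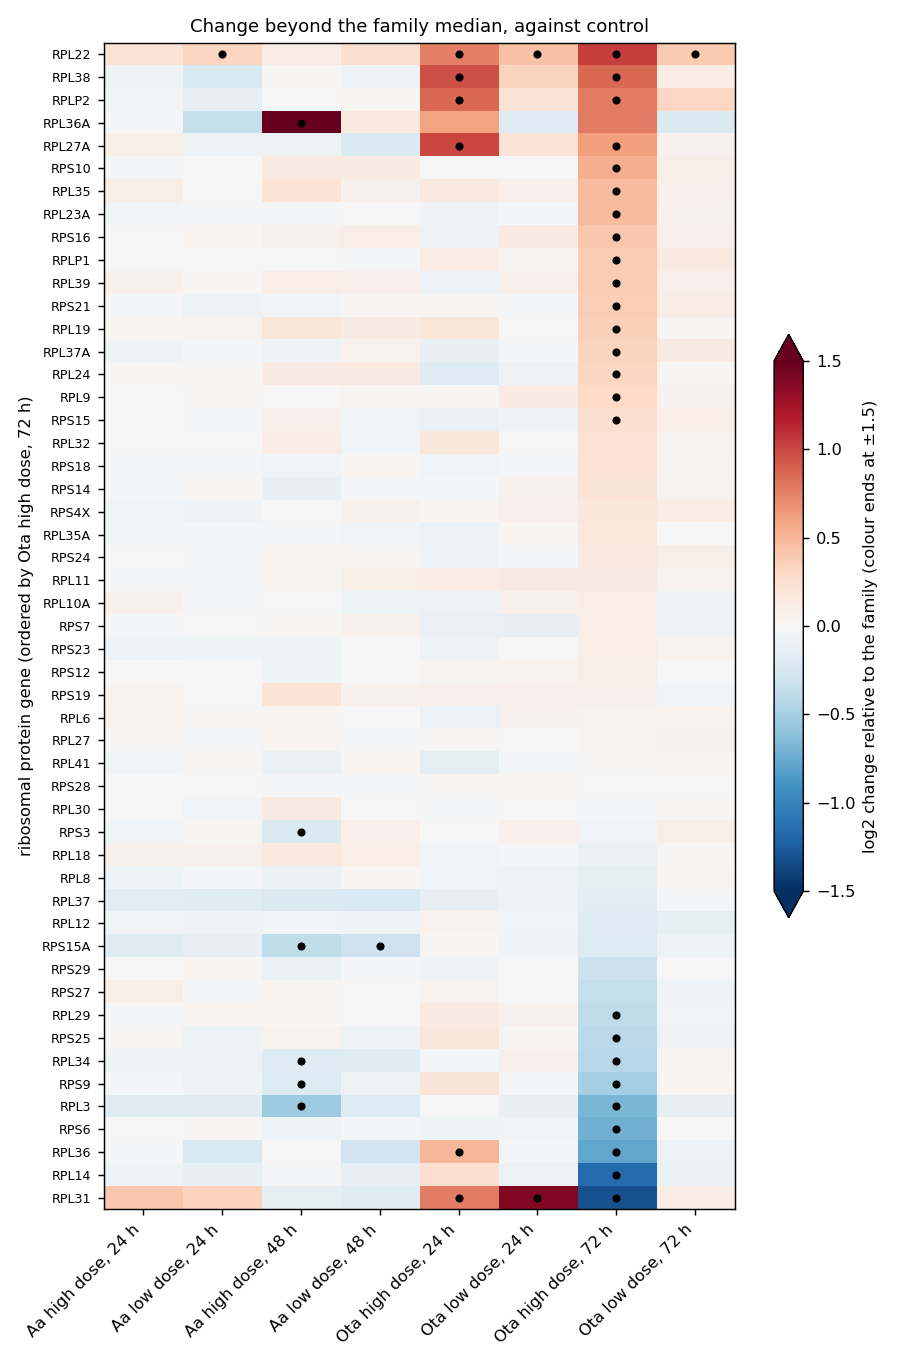
Departure of each of the 51 tested members (rows, ordered by the Ota high dose at 72 h) from the family median (log2, red above and blue below, the colour scale cut at both ends) in the 8 dose comparisons (columns), with a dot where the departure was called. The strongest values are RPL36A at 2.18 for the Aa high dose at 48 h, RPL31 at 1.39 for the Ota low dose at 24 h, and RPL31 at -1.30 and RPL14 at -1.16 for the Ota high dose at 72 h.

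The effect of the high dose of Ota differed between 72 h and 24 h. On the deposited scale the difference in effect was called for 0 members upward and 29 downward, against 53.8% of tested genes, and relative to the family 9 departed each way, against 63%. RPL31 differed most, by -2.07 (SE 0.23, adjusted p = 2.46e-06), followed by RPL14 at -1.41 (adjusted p = 2.33e-06) and RPL36 at -1.28 (adjusted p = 0.000194). RPL3 and RPS6 differed by -0.69 and -0.66. The value of RPL31 belongs to its dim set: with the brightest set its departures were -0.0843 at 24 h and -0.21 at 72 h, neither called. For Aa, 48 h against 24 h, 1 member departed (19.3% of tested genes did), RPL36A at 2.20 (SE 0.29, adjusted p = 0.000278), and with the replicate block 3 did. Between the compounds at 24 h, 5 members departed more at the Ota than at the Aa high dose and 0 less, against 58.7% of tested genes: RPL38 (1.02), RPL27A (0.91), RPLP2 (0.91), RPL22 (0.55) and RPL14 (0.31, adjusted p = 0.0475). The doses of the compounds are not matched, so this compares the exposures used. The RPL38 value belongs to its dim set, and its bright _x_at set changed by 0.24 with Ota and 0.12 with Aa. RPLP2 was read by a set at a mean of 4.54. With the brightest set of each gene, fewer members departed between the compounds.

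High and low dose were also compared directly. For Ota at 24 h, 6 departed above and 1 below, against 58.4% of tested genes. The one below was RPL31 (-0.62), and RPL27A (0.79) was the largest above. The RPL31 value belongs to its representative set. Its second dim set changed by 0.98 at the high and 0.19 at the low dose, and its bright set by 0.06 and -0.13, the opposite order. For Ota at 72 h, 12 departed above and 9 below, against 60.6%, with RPL31 at -1.41, RPL14 at -1.05 and RPS6 at -0.72 as the lowest and RPL36A at 1.00 as the highest. For Aa, 0 members departed at 24 h, against 26.1% of tested genes, and 1 above and 2 below at 48 h, against 46.8%: RPL36A (2.03), RPL3 (-0.35) and RPS3 (-0.29).

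A few members differed between the earlier and the later controls of a compound, and the part of time in culture in this was not tested. Between the Ota controls at 72 h and 24 h 3 members were higher and 0 lower, against 29.8% of tested genes, and 2 departed, against 34.6%. RPL31 rose by 1.93 (SE 0.14, adjusted p = 2.08e-07), from 8.45, 8.66 and 8.67 to 10.64, 10.56 and 10.38, and RPL22 rose by 0.50 (adjusted p = 0.00143). An intensity trend gave 17 higher and 0 lower. The fall of RPL31 and the rise of RPL22 under Ota at 72 h are therefore read, in their representative sets, against controls that had themselves moved. In the Aa controls between 48 h and 24 h 2 members were higher and 0 lower, against 1.29% of tested genes, and 1 departed, against 2.69%. RPL31 rose by 1.19 (adjusted p = 0.0495) and RPL27A by 0.53 (adjusted p = 0.0381), while the second dim set of RPL31 changed by 0.50 and its bright set by 0.08. Both Aa calls were lost without any of 5 of the 6 control arrays, all but 48 h replicate 3, and with the replicate block 4 members were called.

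Over the 12 groups, the range of a member's mean relative to the family median was 0.365 for the median member and from 0.148 to 2.47 in all. It was under 0.5 for 38 members and over 1 for 8: RPL36A (2.47), RPL31 (2.00), RPL38 (2.00), RPL27A (1.79), RPL22 (1.65), RPL14 (1.36), RPL36 (1.26) and RPLP2 (1.04). All 8 belong to the large subunit, and 5 of them are among the dim representatives. By their representative sets, RPL22 departed in 5 of the 8 dose comparisons and RPL31 in 3. A further 23 members departed in 0, and 16 departed only at the Ota high dose at 72 h. RPL11 was not called against its control at any dose or time. Its values in Ota at 72 h were 14.44, 14.38 and 14.46 in the controls and 14.02, 14.32 and 14.25 at the high dose, a difference of -0.23 (SE 0.11, adjusted p = 0.0904), and at 24 h the high dose difference was 0.27 (adjusted p = 0.0531).

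Changes were set beside the TOP start, without a test. At the Ota high dose at 72 h the 34 members with a TOP-like start had a median change of -0.22 and the 12 others -0.25. At 24 h the medians were 0.19 and 0.16, and for the Aa high dose 0.08 and 0.10 at 24 h and 0.05 and 0.08 at 48 h. The members printed above, whose starts all open with CT or CC, include members that fell and members that rose.

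Second probe sets tell how far a value belongs to the gene. Among 24 further sets with a mean above 12, of 17 genes, the median absolute difference from the representative's change was 0.05 for both Aa high doses, 0.11 for the Ota high dose at 24 h and 0.16 at 72 h. The largest difference was 1.15, in RPL31 at 72 h. The bright _x_at sets of RPL7, at 15.35 and 15.14, changed by -0.01 to 0.15 over the dose comparisons. When the brightest set of each gene was used with _x_at sets included, the rises of RPL31 at the Ota low dose and of RPL38 at 72 h turned to -0.13 and -0.05. Members also have many processed pseudogenes, so a set may bind more than 1 transcript.

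Some further probe sets of members rose by large amounts in nearly every exposed group while the bright representative sets of the same genes changed by -0.67 to 0.17. The members have 59 further sets of 33 genes, of which 44 were tested in both compounds when every probe set with 1 symbol was fitted on its own, a test chosen after these values were seen. Of these, 8 sets of 5 genes (RPL37, RPS15A, RPS23, RPS28 and RPS29) were called higher by over 1 log2 unit in at least 6 of the 8 dose comparisons. Among further sets of all genes, 261 of 8977 (2.91%) did so, and among representative sets 127 of 10649 (1.19%). The count in each comparison of member sets called higher by over 1 was 8 at the Aa high dose at 24 h against 10.8% of further sets of all genes, 8 at the Aa low dose at 24 h against 5.95%, 9 at the Aa high dose at 48 h against 12.8% and 9 at the Aa low dose at 48 h against 6.25%. With Ota it was 15 at the high dose at 24 h against 14.2%, 9 at the low dose at 24 h against 7.2%, 10 at the high dose at 72 h against 18.6% and 9 at the low dose at 72 h against 5.86%, with 44 sets tested for Aa and 45 for Ota.

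The set of RPS15A (235309_at) read 6.49, 6.66 and 6.19 in the Aa controls at 24 h, 10.42, 10.80 and 10.19 at the low dose and 9.74, 9.88 and 9.69 at the high dose. In the Ota groups at 24 h it read 6.60, 6.83 and 6.30 in the controls, 11.02, 11.08 and 11.18 at the low dose and 11.06, 10.64 and 11.20 at the high dose. Exposed and control arrays were far apart, and the change lay between 2.31 and 4.52 over the 8 dose comparisons, whereas the representative changed by -0.55 to 0.17. A set of RPL37 (224763_at) read 7.61, 7.75 and 7.44 in the Aa controls at 24 h and 11.63, 11.55 and 11.54 at the high dose. In the Ota groups at 72 h it read 10.64, 11.09 and 10.63 in the controls and 12.27, 12.04 and 11.82 at the high dose, so the controls had come closer to the exposed arrays. Its changes ran from 1.10 to 3.97, and the representative of RPL37 changed by -0.52 to 0.02. The other 2 such sets of RPL37 changed by 1.04 to 3.53.

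The set of RPS29 (238824_at) read 5.36, 5.95 and 4.06 in the Aa controls at 48 h, 8.50, 8.52 and 7.73 at the low dose and 9.93, 10.24 and 10.12 at the high dose, a rise of 4.98 at the high dose. It was called higher in 7 of the 8 dose comparisons, the exception being the Ota low dose at 72 h (-0.12). The set of RPS23 changed by 2.11 to 3.06 and the 2 sets of RPS28 by 1.34 to 3.69 over the dose comparisons. With quantile normalization, a common median, the spike scale or the replicate block, each of the 8 sets stayed higher in at least 7 of the 8 comparisons. Between 72 h and 24 h the Ota controls themselves gave 8 further member sets called higher by over 1, against 6.13% of further sets of all genes. What these dim sets measure (which transcript of the gene, or another RNA) was not tested, since the sequences of the probes were not used here.

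Genes around the family were taken in lists chosen with earlier results known, and their counts are read against the share of all tested genes called: 51.3% and 66% at the Aa high dose at 24 h and 48 h, and 64% and 63.4% at the Ota high dose at 24 h and 72 h. The median over all tested genes was 0.026, -0.036, -0.26 and -0.12 in these comparisons. Of 75 mitochondrial ribosomal protein genes, 3 rose and 57 fell at the Ota high dose at 24 h (median -0.99), and 15 rose and 43 fell at 72 h (median -0.57), against 21.6% of tested genes higher and 42.4% lower at 24 h and 26.3% and 37% at 72 h. For the Aa high dose the counts were 10 and 22 at 24 h and 24 and 24 at 48 h, against 51.3% and 66% called either way. MRPL16 had means of 4.87 ± 0.61 (SD, n = 3) against 8.81 ± 0.16 at the Ota high dose at 24 h, a fall of 15.3-fold (limma adjusted p = 2.18e-08). MRPL12, which also binds mitochondrial RNA polymerase, went from 8.98 ± 0.06 to 5.17 ± 0.33 at 72 h, a change of -3.80.

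Of 23 ribosome biogenesis factors, 9 rose and 4 fell at the Aa high dose at 24 h, 16 rose and 3 fell at 48 h, 3 rose and 12 fell at the Ota high dose at 24 h, and 13 rose and 3 fell at 72 h. The medians were 0.34, 0.57, -0.64 and 0.61, and 51.3%, 66%, 64% and 63.4% of tested genes were called in these comparisons. NOB1, the nuclease that finishes 18S rRNA, had 9.82 ± 0.08 (SD, n = 3) in the 24 h Ota controls and 5.89 ± 1.02 at the high dose, a 15.3-fold fall. RRP12, an export factor of pre-ribosomes, rose by 1.22 at the Aa high dose at 48 h and stood at 6.96 ± 0.07 in the Ota controls at 24 h, with all 3 high dose arrays at or under 4. Of 4 carriers of new ribosomal proteins, 3 rose and 0 fell at each Aa high dose, and 1 rose and 2 fell and then 1 rose and 0 fell with Ota at 24 h and 72 h, against the same shares of tested genes. BCCIP, the carrier of RPL23, rose by 0.93, 1.63, 1.68 and 1.70 in the 4 high dose comparisons in that order, and HEATR3, which brings in RPL5, rose by 0.79 and 0.93 with Aa.

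Other genes with TOP mRNAs, 14 tested, moved as a mixture: 2 rose and 0 fell, then 2 and 5, with Aa, and 4 and 0, then 4 and 9, with Ota, at the high doses in order of time, against 51.3% and 66% of tested genes called with Aa and 64% and 63.4% with Ota. The representative set of the elongation factor gene EEF1A1 rose in all 4 high dose comparisons, by 1.81, 0.63, 2.28 and 1.13. It rose more at each low dose, by 2.61 and 2.09 with Aa and by 3.22 and 2.42 with Ota, in order of time. Its control means lay below 12, the level that most representatives of members exceeded. What this EEF1A1 set measures was not tested, as for the dim further sets of members that rose. NACA, measured by a dim set, rose by 2.48 at the Aa high dose at 48 h, from a control mean of 4.56. At the Ota high dose at 72 h all 3 of its arrays were at or under 4 against 5.21 ± 0.46 (SD, n = 3) in the controls. Of 10 mTORC1 and LARP1 regulators, 3 rose and 3 fell and then 4 and 4 with Aa, and 1 rose and 5 fell and then 2 and 6 with Ota, against those same shares. EIF4EBP1, the inhibitor of cap-dependent initiation, went from 10.33 ± 0.42 to 6.64 ± 0.22 at the Ota high dose at 72 h. RPS6KB1, an S6 kinase, rose by 0.72 and 0.54 with Aa and fell by 2.20 with Ota at 24 h.

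Of 7 tested paralogs of ribosomal proteins, 2 rose and 0 fell, then 4 and 0, with Aa, and 2 rose and 4 fell at both times with Ota, against 51.3%, 66%, 64% and 63.4% of tested genes called. RPL36AL fell by 1.70 at the Ota high dose at 24 h (adjusted p = 9.67e-08) and by 1.28 at 72 h, and RPL10L rose by 1.11 (adjusted p = 0.0323) at 24 h. At 72 h RPL10L had a mean of 6.11 ± 0.83 (SD, n = 3) in the controls and was called lower at the high dose (limma adjusted p = 0.000325), where 2 of the 3 arrays were at or under 4. FAU, the one gene tested of the ribosomal proteins outside the symbol pattern, rose by 0.64 at the Aa high dose at 48 h (adjusted p = 0.000265) and by 0.51 at the Ota high dose at 24 h (adjusted p = 0.00798).

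**Figure D5:**
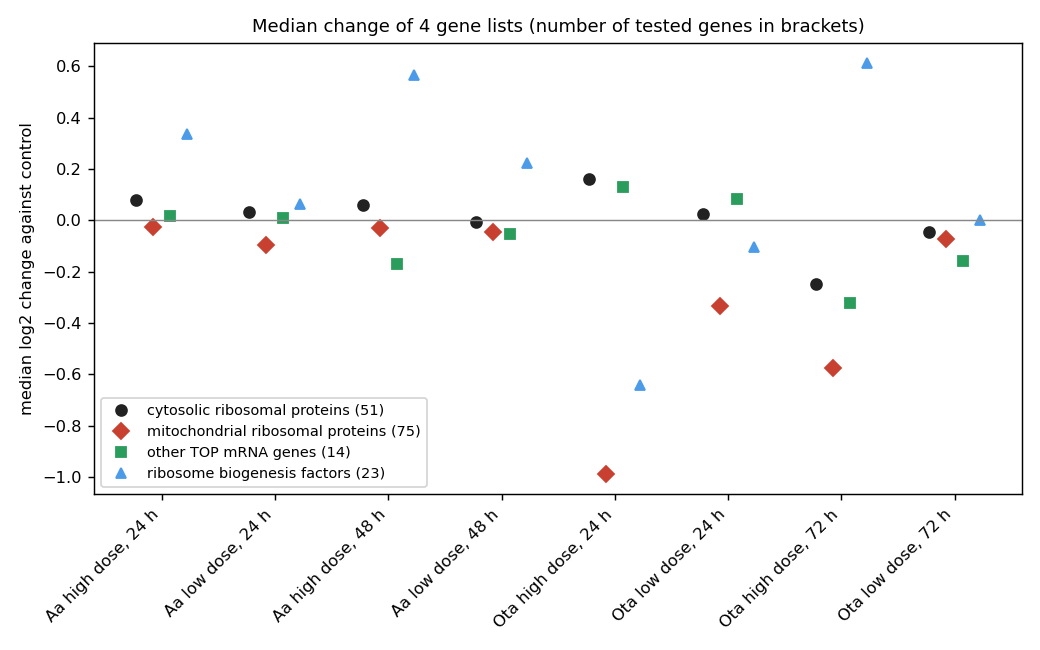
Median log2 change against the control in the 8 dose comparisons, with 1 marker each for the cytosolic ribosomal protein family (51 genes), the mitochondrial ribosomal proteins (75), other TOP mRNA genes (14) and ribosome biogenesis factors (23). At the Ota high dose at 24 h the family median is 0.16 and that of the mitochondrial ribosomal protein genes is -0.99.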

How the data were processed

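HK-2 cells in 12 groups of 3 arrays were measured on Affymetrix U133 Plus 2.0 arrays from total RNA (Qiagen RNeasy), per the labels' protocols. Deposited values are log2 expression per probe set, for which the submitters' processing notes name GCRMA as the authors' tool. The sources used here give neither its version nor whether all arrays were normalised together. GCRMA subtracts a sequence-based background, normalises arrays and summarises probes. Sizes of change near the background and near the top of the scale are read with caution. Of 54675 probe sets, 62 control sets were kept apart, 41091 had 1 gene symbol, 1801 several and 11721 none in the platform annotation. Entrez identifiers of all 52 members matched RefSeq and 0 symbols were updated.

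Genes with a log2 value over 4 on at least 3 arrays were fitted with limma 3.58.1 in R 4.3.3 (group means, 18 arrays per compound with 12 residual degrees of freedom, all 36 for Ota against Aa, where 11405 genes passed). P-values were two-sided and adjusted by Benjamini-Hochberg over all tested genes, called under 0.05. The same fit was repeated after subtracting each array's family median deviation, and was tested on simulated data. Tables and figures used Python 3.11.15 and matplotlib 3.10.9. Depth has no meaning for arrays, and 3 arrays a group limit the precision.

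Members named in full are those with the 8 largest ranges over groups, the largest departures per comparison (2 each way at high and 1 each way at low dose), and RPL5, RPL11, RPLP0, RPS6 and RPS27A where analysed. In each other list the 2 largest called changes were named. The members and lists were chosen with earlier results of these data known. Same-numbered replicates deviated together for Aa (r from 0.30 to 0.56 across pairs) and for Ota at 24 h (0.11 to 0.41), so blocked values stand beside a result where they change a call or move a count by over 1.5 times. The labels do not say what a number marks. Alternatives were other scalings, no filter, an intensity trend, the mean of all sets, the replicate block, all arrays in 1 fit and each replicate left out. Use of the brightest set, and the test of single probe sets, were chosen after seeing the data.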

Additional observations from a re-analysis of the deposited data

Results flagged for a closer look

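Among the members named in full, a departure from the family differed between 2 groups under the same contrast in 11 values, by the interaction term of the limma fit with Benjamini-Hochberg adjustment over all tested genes. For the high dose of Ota, the departure at 72 h minus that at 24 h was -2.07 for RPL31, -1.41 for RPL14, -1.28 for RPL36, -0.69 for RPL3 and -0.66 for RPS6, with adjusted p of 2.46e-06, 2.33e-06, 0.000194, 0.00623 and 0.00562. For the high dose of Aa, the departure at 48 h minus that at 24 h was 2.20 for RPL36A (adjusted p = 0.000278). For the high dose at 24 h, the departure with Ota minus that with Aa was 1.02 for RPL38, 0.91 for RPL27A, 0.91 for RPLP2, 0.55 for RPL22 and 0.31 for RPL14, with adjusted p of 0.00167, 0.000746, 0.00593, 0.000871 and 0.0475. Over all 51 tested members, 18 differed between the times of Ota (9 each way), 1 between the times of Aa and 5 between the compounds. The values of RPL31 and RPL38 belong to dim sets. The bright RPL38 set changed by 0.24 with Ota and 0.12 with Aa, and the brightest RPL31 set did not depart at either Ota time. The arrays of RPL36, RPS6 and RPL3 at the Ota high dose at 72 h put replicate 2 nearest the controls.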

How the results depend on the processing

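Calls are numbers of members called, and the setting as deposited is given in the report. With arrays shifted to a common median, calls were 0 for the Aa high dose at 24 h, the Aa low dose at 48 h and the Ota low dose at 72 h, 51 for the Ota high dose at 24 h and 1 between the Aa controls. The family medians then were 0.00943 and 0.075 for the Aa high and low dose at 24 h, 0.833 and 0.162 for Ota at 24 h and 0.0957 for the Ota high dose at 72 h. With the hybridisation spikes, calls were 0 for both Aa doses at 24 h, 27 and 0 for the Aa high and low dose at 48 h, 44 and 1 for Ota at 24 h, 42 and 0 at 72 h, and 0 and 1 between the Aa and the Ota controls. Family medians were -0.209, -0.171 and -0.376 for the Aa high dose, low dose at 24 h and high dose at 48 h, -0.747, -0.224, -0.668 and -0.23 for Ota in the order 24 h high and low, 72 h high and low, and -0.261 and 0.0569 between controls. Quantile normalization gave 0 calls for the Ota low dose at 72 h, 1 departure for the Aa high dose at 24 h, and family medians of 0.0994 and -0.113 for the Ota high dose at 24 h and 72 h and of 0.0252 and 0.0966 between the Aa and Ota controls.

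With the mean of all probe sets of a gene, which includes the dim sets that rose, calls were 8, 6, 18 and 8 for Aa (24 h high and low, 48 h high and low), 24 and 8 for Ota at 24 h, 6 for its low dose at 72 h and 11 between its controls. Departures were then 7, 6, 42 and 16 for Aa, 33, 9, 47 and 50 for Ota, and 18, 36 and 17 for the difference in effect by time in Aa, by time in Ota and between compounds. The family medians were 0.0252 for the Aa low dose at 48 h and -0.13 for the Ota high dose at 72 h. Without the filter, calls were 8, 18 and 6 for Aa (24 h high, 48 h high and low), 24 and 2 for Ota (24 h high, 72 h low), and 1 and 14 between controls, and departures were 2, 13 and 5 for the same Aa comparisons, 11 for the Ota high dose at 24 h and 2 for the Aa effect by time. An intensity trend gave 9, 17 and 5 calls for Aa, 23 for the Ota high dose at 24 h and 17 between the Ota controls. All 36 arrays in 1 fit gave 1 and 12 calls between the Aa and Ota controls. The family mean as centre gave 2 departures for the Aa low dose at 48 h and 2 for the Aa effect by time. Members under the median level gave family medians of 0.0196 and -0.0463 for the Aa low dose at 24 h and 48 h, 0.278, 0.0512 and -0.313 for Ota (24 h high and low, 72 h high) and 0.234 between its controls.

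With the replicate number as a block, calls were 6, 2, 13 and 6 for Aa (24 h high and low, 48 h high and low) and 4 between its controls, and departures were 3, 2, 10 and 6, with 3 for the Aa effect by time. For Ota at 72 h the numbers did not pair the arrays (lowest r -0.06 and 0.07), and the block gave 2 higher and 24 lower at the high dose. For the members named in full, 47 called changes and departures kept their call with the block, 0 lost it, and 6 changes and 9 departures gained one. The brightest set of each gene, chosen after seeing the data, gave calls of 0 for the Aa doses at 24 h and the Ota low doses at 24 h and 72 h, 2 for the Aa low dose at 48 h and 1 between either controls, and departures of 0 for the Aa low dose at 24 h and the Ota low doses at 24 h and 72 h, 3 for the Aa low dose at 48 h, 2 for the Aa effect by time and 2 between compounds.

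Leaving out 1 replicate moved the family median within 0.0712 to 0.0954 and 0.0150 to 0.0426 for the Aa high and low dose at 24 h, 0.0359 to 0.0682 and -0.0151 to 0.00992 at 48 h, 0.140 to 0.175 and 0.0130 to 0.0436 for Ota at 24 h, -0.280 to -0.195 and -0.0621 to -0.0298 at 72 h, and 0.0414 to 0.0662 and 0.148 to 0.160 between the Aa and Ota controls. Calls ran from 0 to 1, 1 to 1, 5 to 8 and 0 to 3 for Aa, from 10 to 13, 2 to 2, 22 to 27 and 0 to 0 for Ota, and from 0 to 2 and 2 to 4 between controls. Departures ran from 0 to 0, 0 to 1, 3 to 6 and 0 to 3 for Aa, from 6 to 7, 1 to 2, 23 to 30 and 0 to 1 for Ota, and were 1 for the Aa effect by time, 14 to 22 for that of Ota and 4 to 6 between compounds.

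Of 636 recomputed values of 47 member results, 545 kept direction and call, 71 lost the call and 20 changed sign. With the brightest set these were the changes of RPL31 at the Ota low dose at 24 h (-0.13), RPL38 at the Ota high dose (-0.0479) and RPL22 at the Ota low dose at 72 h (-0.0493), and the departures of RPL31 at the Ota high and low dose at 24 h (-0.0843 and -0.17) and of RPL22 at the Aa low dose at 24 h (-0.0322). With the spikes they were the changes of RPL22 (-0.0054), RPL14 (-0.51) and RPL36 (-0.26) at the Ota high dose at 24 h. With the mean of all sets they were the changes of RPS15A at the Aa high and low dose at 48 h (0.88 and 1.06) and the Ota high dose at 72 h (0.86), its departures with Aa (0.49 and 0.87), and the departures at the Ota high dose at 72 h of RPL38 (-0.26), RPL27A (-0.32), RPLP2 (-0.34) and RPL22 (-0.15), and of RPL22 at the Ota low dose at 24 h (-0.0587) and 72 h (-0.50). The causes were not tested, beyond what each setting does by its construction. Arrays carry no count of molecules, so the level over the background and the number of arrays limit what can be seen.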

Other observations

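Beyond the sets described in the report, a few further probe sets of members moved strongly at the Ota high dose. A set of RPS15 (1563014_at) read 6.41, 5.72 and 6.09 at 24 h and 7.37, 7.48 and 7.64 at 72 h, with all control arrays under 4. Against a level of 4 this is at least 4.21-fold and at least 11.3-fold higher. A set of RPS21 (214097_at) rose by 1.62 and 2.38, to 12.18 ± 0.26 and 13.14 ± 0.23 (SD, n = 3). A set of RPS24 (1555878_at) read 7.42, 7.04 and 7.09 in the 24 h controls and was under 4 on all 3 high dose arrays, at least 9.09-fold lower against a level of 4. At 72 h it read 5.31, 3.89 and 6.19 at the high dose and 7.45, 6.89 and 8.02 in the controls, and was called lower.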
